A study of Mus musculus with 17 samples.

Results

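The type I interferon stimulated genes are genes that cells switch on when interferon alpha or beta reaches them. They were chosen here by name, as 47 symbols matched exactly to the gene names of the deposited table, which held 42794 complete gene lines. They comprised 8 genes listed as sensors of foreign or misplaced nucleic acid, 14 as regulators, 4 as genes of the ISG15 system, 16 as antiviral effectors and 5 other genes. The rule itself used no measured value, but the members were chosen with earlier results of these data known. The genes were studied in RNA sequencing libraries of whole mouse kidney from a series on glucagon and diabetic kidney disease. Its design text describes a knockdown of Gcgr, the glucagon receptor gene, in proximal tubule cells by short hairpin RNA.

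There were 3 groups. The 7 libraries labelled DKD_shRNA have the genotype Gcgr shRNA, the 6 libraries of DKD_Vehicle have the genotype Ctr shRNA, and the 4 libraries of NC have the genotype WT. Both DKD groups therefore share the diabetic kidney disease label, which NC does not carry, and they also share being treated with an shRNA if the genotype label holds. The titles of the second group say vehicle while its genotype says control shRNA, so which of these the kidneys received is uncertain. The sources used here give no strain, sex, age, means of inducing disease or route of shRNA delivery. Disease and any shRNA procedure cannot be told apart in a comparison of either DKD group with NC. Nothing in the labels assigns libraries to separate animals, and p-values therefore rest on the spread between libraries, which may be technical.

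The label of the knocked-down gene was checked first. Gcgr was 11.02 FPKM at the lowest, 13.2 at the median and 15.7 at the highest of the libraries labelled DKD_shRNA, against 5.89, 10.4 and 11.8 FPKM in DKD_Vehicle. FPKM gives fragments relative to gene length and library size, so levels of different genes can be set side by side. In NC, Gcgr was 21.5, 18.3, 19.4 and 23.8 FPKM. In whole kidney RNA the libraries labelled as the knockdown were thus not lower than DKD_Vehicle (log2 fold change 0.40, adjusted p = 0.413, limma with Benjamini-Hochberg adjustment). That goes against the label at the level of the whole kidney. Such RNA cannot show Gcgr in proximal tubule cells alone, where the design text places the knockdown. The 5.89 FPKM were those of DKD_Vehicle 20, and the other libraries of its group were at 8.80 to 11.8 FPKM. Every direction below is drawn for libraries labelled DKD_shRNA. Recovered read totals lay between 13997657 and 17107876 per library. The 10 proximal tubule markers summed to 2920 to 5241 FPKM in every library, so markers of the labelled tissue were present throughout. DKD_Vehicle 20 stood apart from the other libraries in markers of tissue outside the kidney parenchyma, with 691 FPKM summed over 7 fat markers and 195 FPKM over 7 urothelium markers, against at most 47.5 and 12.4 FPKM in any other library. The main counts of genes passing and several fold changes are given with and without it, and the other values include it.

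Type I interferons are made by cells in which nucleic acid sensors such as RIG-I, MDA5 or cGAS have been triggered, and they act through a shared receptor on nearly every cell. The receptor's kinases activate signalling factors, STAT2 among them, that join IRF9 in the complex ISGF3, which binds interferon response elements in promoters. The induced genes include many of the sensors and factors themselves, so the response amplifies, and others block viral replication or restrain the signal. In kidney, interferon stimulated genes are well known from lupus nephritis and viral nephropathy, where tubular, endothelial and immune cells can all respond.

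Promoter letters are shown first because ISGF3 and IRF factors read a short repeated sequence. RefSeq promoters of build GRCm38.p6, from 250 bases before to 50 after the transcript start, were found for 36 of the 47 genes. Not matched were Dhx58, Ifi27, Ifi27l2a, Mx1, Mx2, Oas2, Parp14, Parp9, Rtp4, Usp18 and Zbp1. The letters GAAA-NN-GAAA, with any bases at N, searched on both strands with overlapping matches allowed, are the core of the interferon response element. They occurred in the promoters of 15 of the 36 genes (41.67%), against 1079 of the 27025 genes in the RefSeq promoter set (3.99%). The letters TTCNNNGAA, which mark the palindrome read by STAT dimers, occurred in 7 of the 36 (19.44%), against 2582 of the 27025 (9.55%). The Isg15 promoter, at chr4:156200769-156201068 on the minus strand, is printed whole because it held the longest run, 3 overlapping matches in capitals.

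Isg15: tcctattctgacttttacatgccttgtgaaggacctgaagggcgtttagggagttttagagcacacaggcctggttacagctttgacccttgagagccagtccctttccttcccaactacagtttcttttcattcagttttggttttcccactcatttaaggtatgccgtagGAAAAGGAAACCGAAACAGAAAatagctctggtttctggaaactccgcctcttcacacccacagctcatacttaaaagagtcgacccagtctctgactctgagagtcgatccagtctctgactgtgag

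Shorter stretches around the matches follow for 8 genes whose levels are described below, so that the spacing of the repeats can be compared. Capitals mark the matched letters, read as TTTC-NN-TTTC where the match lies on the strand opposite to the gene. The stretches lie at chr8:71537579-71537610 (minus) for Bst2, chr19:34640777-34640821 (plus) for Ifit1, chr19:34583365-34583424 (plus) for Ifit3, chr5:120907522-120907553 (minus) for Oas1a, chr5:120887608-120887639 (minus) for Oas1g, chr4:40239806-40239831 (minus) for Ddx58, chr2:62646206-62646231 (minus) for Ifih1 and chr10:128270268-128270293 (plus) for Stat2.
Bst2: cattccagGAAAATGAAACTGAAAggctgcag
Ifit1: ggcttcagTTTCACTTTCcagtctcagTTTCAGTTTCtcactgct
Ifit3: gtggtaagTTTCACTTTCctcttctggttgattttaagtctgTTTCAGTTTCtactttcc
Oas1a: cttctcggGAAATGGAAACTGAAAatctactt
Oas1g: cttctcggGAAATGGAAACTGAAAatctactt
Ddx58: tgaggcagTTTCGATTTCctatggcc
Ifih1: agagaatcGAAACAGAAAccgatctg
Stat2: caccctggTTTCAGTTTCctttccct

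The stretches of Oas1a and Oas1g were identical over 32 bases. Irf7, one of the most raised regulators, had no match to GAAA-NN-GAAA in its window (chr7:141266375-141266674, minus strand), which says only that these letters are not in that window. Among genes with a promoter, 9 of the 20 that passed the test in DKD_Vehicle against NC held the letters (45.0%), and 6 of the 16 that did not pass or were not tested held them (37.5%). A match describes the letters and does not show a bound site.

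**Figure D1:**
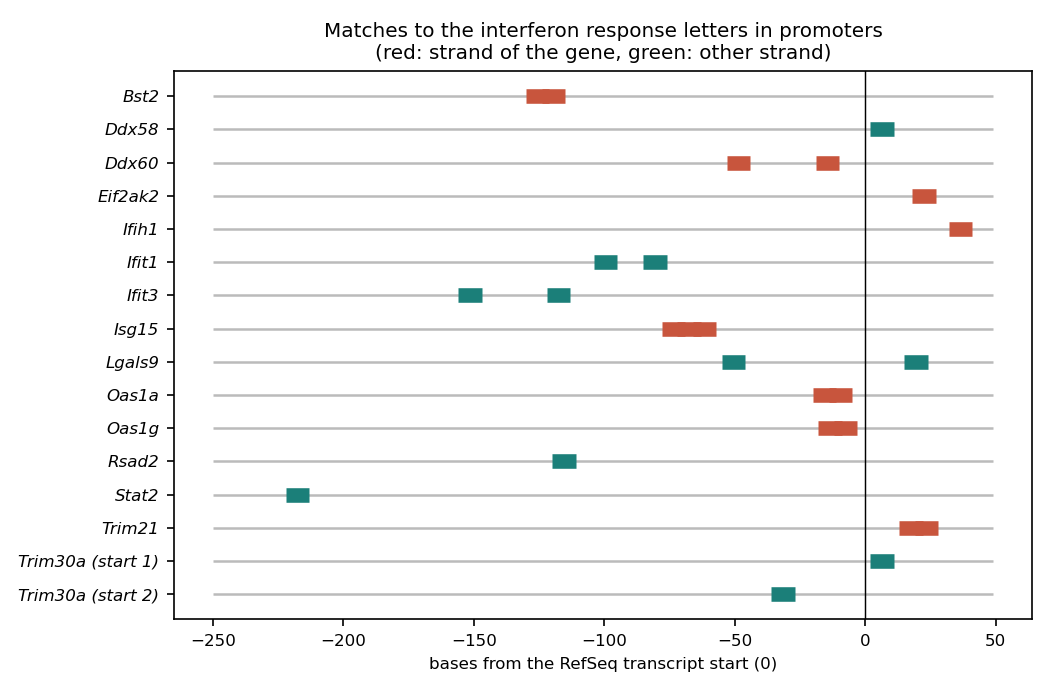
Positions of matches to GAAA-NN-GAAA on the gene's strand (red) or the other strand (green) in the promoters of the 15 genes that hold the letters, in bases from the RefSeq transcript start. Trim30a has 2 annotated starts, and Isg15 shows the run of 3 overlapping matches.

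Levels of the 47 genes differed widely before any comparison. In NC the mean FPKM ran between 0.115 for Ddx60, a helicase that aids RIG-I in human cells, and 24.2 for Samd9l, an antiviral translation inhibitor. Ifi27, a mitochondrial protein, had the highest mean of the 47 in both DKD groups, 85.1 FPKM in libraries labelled DKD_shRNA and 82.5 FPKM in DKD_Vehicle. Tests used log2(FPKM + 1), a scale that understates the change of low genes, on genes that reached 1 FPKM in 4 or more libraries. The filter kept 44 of the 47 genes, and Ddx60, Herc6 and Mx1 were too low to be tested. Of the 44, 8 were under 1 FPKM in every NC library and passed the filter only through DKD libraries, so counts over the 44 describe the tested genes and are not support for a difference.

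In DKD_Vehicle against NC, 29 of the 44 tested genes rose and 0 fell (limma, Benjamini-Hochberg adjusted p under 0.05), where 3.58% of all 13279 tested genes rose. Fold changes were above 0 for all 44, with a median log2 fold change of 0.78, against 0.0071 over all tested genes. Every DKD_Vehicle library lay above every NC library for 30 of the 44 genes, against 4.71% of all tested genes. At least 2-fold higher and passing were 15 of the 44, against 0.633% of all tested genes. Among the 30 tested genes that were at 1 FPKM or more in every NC library, 16 rose, against 3.39% of the 11458 genes of that kind. Without DKD_Vehicle 20 the count was again 29, the same 29 genes, where 4.16% of the 13183 genes then tested rose, with a median log2 fold change of 0.65. The counts of groups that did not overlap and of 2-fold rises include DKD_Vehicle 20.

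In the libraries labelled DKD_shRNA against NC, 23 of the 44 rose and 0 fell, where 1.42% of all tested genes rose. All 44 fold changes were again above 0, with a median log2 fold change of 0.68, against -0.0049 over all tested genes. Groups did not overlap, with the libraries labelled DKD_shRNA higher, for 32 of the 44 genes, against 3.31% of all tested genes. At least 2-fold higher and passing were 12 of the 44, against 0.407% of all tested genes. Among the 30 genes at 1 FPKM or more in every NC library, 11 rose, against 1.16% of the 11458. DKD_Vehicle 20 enters this fit only through the shared spread and the choice of genes tested. Without it the count was 29, where 1.7% of the 13183 genes then tested rose. It was 14 without NC 38, where 0.643% of all tested genes rose, and 15 with limma voom on recovered reads, where 1.09% rose. Both comparisons with NC share the same 4 NC libraries, so their likeness is not independent.

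All 23 genes that passed in libraries labelled DKD_shRNA also passed in DKD_Vehicle, and 6 more passed in DKD_Vehicle, namely Ddx58, Parp14, Cmpk2, Ifi27l2a, Ifi35 and Ifi44. None of these 6 differed between the DKD groups in the direct test given further on. The 15 tested genes that passed in neither were Eif2ak2, Adar, Znfx1, Irf1, Stat2, Dtx3l, Helz2, Trim21, Trim25, Sp100, Lgals9, Uba7, Mx2, Rsad2 and Samd9l. Their log2 fold changes in DKD_Vehicle against NC ran between 0.13 and 0.65.

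**Figure D2:**
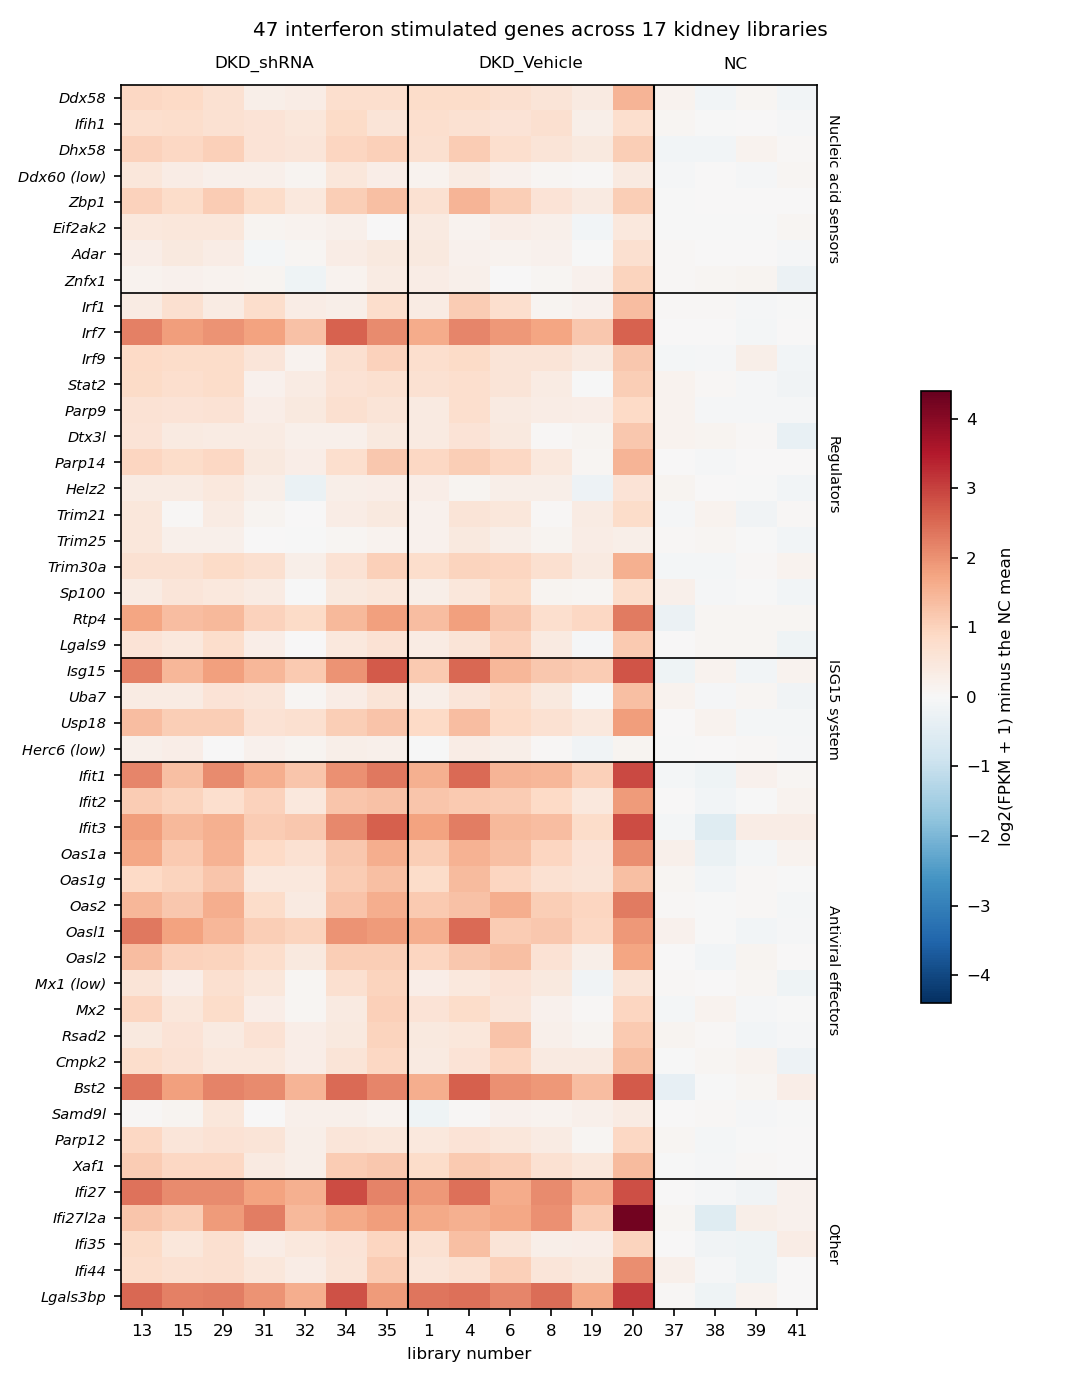
Level of each of the 47 genes in each library, as log2(FPKM + 1) minus the NC mean of that gene, with libraries grouped as DKD_shRNA, DKD_Vehicle and NC and genes grouped by role; genes marked low were not tested. Red is higher than NC, DKD_Vehicle 20 is the most raised library and DKD_Vehicle 19 and DKD_shRNA 32 the least raised within their groups.

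Most genes of the sensor list encode proteins that recognise nucleic acid in the cytosol, while Adar edits double-stranded RNA. Of 8 sensors, 7 were tested, 3 rose in libraries labelled DKD_shRNA and 4 rose in DKD_Vehicle, with median log2 fold changes of 0.65 and 0.62 against NC. Beside these counts and those of the roles below, 1.42% and 3.58% of all tested genes rose, in the same order. Zbp1, a sensor of left-handed nucleic acid that can trigger necroptosis, was 0.805, 1.63 and 2.25 FPKM at the lowest, median and highest of libraries labelled DKD_shRNA, against 0.739, 1.43 and 2.69 FPKM in DKD_Vehicle. In NC, Zbp1 was 0.280, 0.326, 0.317 and 0.317 FPKM. Every DKD library was above every NC library, and the DKD groups overlapped almost entirely. Zbp1 rose by 0.94 ± 0.18 (log2 ± SE, adjusted p = 0.0102) in libraries labelled DKD_shRNA and by 0.90 ± 0.19 (adjusted p = 0.00796) in DKD_Vehicle against NC (limma, Benjamini-Hochberg).

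Ddx58, which encodes the RNA helicase RIG-I, was 3.96, 5.86 and 6.79 FPKM at the lowest, median and highest of libraries labelled DKD_shRNA. In DKD_Vehicle it was 4.34, 5.93 and 10.4 FPKM, and in NC 3.57, 2.80, 3.33 and 2.76 FPKM. All DKD libraries were above all NC libraries, and the highest value was that of DKD_Vehicle 20. The log2 fold change against NC was 0.65 ± 0.17 in libraries labelled DKD_shRNA (adjusted p = 0.0541) and 0.79 ± 0.17 in DKD_Vehicle (adjusted p = 0.0100, limma). The second value was 0.65 with DKD_Vehicle 20 left out. Ddx58 also passed in libraries labelled DKD_shRNA when DKD_Vehicle 20 (adjusted p = 0.00880), DKD_Vehicle 19, DKD_shRNA 31 or DKD_shRNA 32 was left out.

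Dhx58, which encodes LGP2, a helper of MDA5 signalling, was 1.07, 1.72 and 1.91 FPKM at the lowest, median and highest of libraries labelled DKD_shRNA, against 0.901, 1.32 and 2.08 FPKM in DKD_Vehicle. In NC it was 0.302, 0.313, 0.584 and 0.476 FPKM, below every DKD library. Its log2 fold changes against NC were 0.87 ± 0.14 (adjusted p = 0.00321) in libraries labelled DKD_shRNA and 0.77 ± 0.15 (adjusted p = 0.00436) in DKD_Vehicle. Ifih1, which encodes MDA5 itself, rose by 0.67 in libraries labelled DKD_shRNA and by 0.62 in DKD_Vehicle on the log2 scale. Eif2ak2, the kinase PKR that halts translation, Adar, which edits double-stranded RNA, and Znfx1, a helicase-like RNA sensor, did not pass in either comparison, with log2 fold changes of 0.28, 0.25 and 0.14 in libraries labelled DKD_shRNA and 0.24, 0.27 and 0.31 in DKD_Vehicle. The last of these, for Znfx1, was 0.17 without DKD_Vehicle 20.

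Among the 14 regulators, all tested, 5 rose in libraries labelled DKD_shRNA and 6 rose in DKD_Vehicle, with median log2 fold changes of 0.53 and 0.57 against NC. Irf7 (ENSMUSG00000025498, chr7:141262706-141266481, minus strand) encodes the factor that drives the late wave of interferon alpha genes. It was 8.22, 14.0 and 22.1 FPKM at the lowest, median and highest of libraries labelled DKD_shRNA, against 7.59, 12.5 and 22.2 FPKM in DKD_Vehicle. In NC it was 2.90, 2.90, 2.62 and 2.87 FPKM. The lowest DKD library was far above the highest NC library, and the DKD groups covered the same range. Irf7 rose 3.91-fold in libraries labelled DKD_shRNA (log2 1.97 ± 0.23, adjusted p = 0.000102) and 3.65-fold in DKD_Vehicle (log2 1.87 ± 0.23, adjusted p = 0.000198). Irf7 overlaps the expressed gene Phrf1 on the other strand, and reads may be shared if strand was not used in counting. Irf9 overlaps Rnf31 on the same strand, so their reads may be shared either way.

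The parts of ISGF3 and its partners moved less. Irf9, the DNA-reading part of ISGF3, was 3.51, 6.04 and 7.17 FPKM at the lowest, median and highest of libraries labelled DKD_shRNA, against 4.29, 5.44 and 8.29 FPKM in DKD_Vehicle and 2.83, 2.94, 3.86 and 2.73 FPKM in the NC libraries. DKD_Vehicle lay wholly above NC, while the lowest library labelled DKD_shRNA lay inside the NC range. Irf9 rose by 0.70 ± 0.15 (log2, adjusted p = 0.0249) in libraries labelled DKD_shRNA and by 0.71 ± 0.16 (adjusted p = 0.0113) in DKD_Vehicle. The first of these calls ended when DKD_shRNA 13, DKD_shRNA 35, NC 37, NC 38 or NC 41 was left out.

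Stat2, the ISGF3 part that carries the activating domain, was 3.21, 4.99 and 5.65 FPKM at the lowest, median and highest of libraries labelled DKD_shRNA, against 2.63, 4.61 and 6.86 FPKM in DKD_Vehicle. In NC it was 3.08, 2.80, 2.57 and 2.29 FPKM, so NC overlapped DKD_Vehicle but lay below every library labelled DKD_shRNA. Its log2 fold changes, 0.62 (adjusted p = 0.0659) in libraries labelled DKD_shRNA and 0.56 (adjusted p = 0.0518) in DKD_Vehicle, did not pass. Without DKD_Vehicle 20 the adjusted p was 0.0295 in libraries labelled DKD_shRNA and 0.0766 in DKD_Vehicle. It also passed in libraries labelled DKD_shRNA without DKD_Vehicle 19 or DKD_shRNA 31, and in DKD_Vehicle without DKD_Vehicle 8, DKD_Vehicle 19 or DKD_shRNA 31.

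Irf1, a factor induced by both interferon classes, was 2.95, 3.28 and 4.67 FPKM at the lowest, median and highest of libraries labelled DKD_shRNA, against 2.63, 3.86 and 7.39 FPKM in DKD_Vehicle. NC stayed below both groups, at 2.40, 2.41, 2.17 and 2.24 FPKM. The test was not passed in libraries labelled DKD_shRNA (log2 fold change 0.51, adjusted p = 0.205) or in DKD_Vehicle (0.65, adjusted p = 0.0584), and Irf1 passed in DKD_Vehicle without DKD_Vehicle 8 or DKD_Vehicle 19. Its log2 fold change in DKD_Vehicle was 0.51 with DKD_Vehicle 20 left out.

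Rtp4, an interferon-induced chaperone of G protein-coupled receptors, was 2.97, 4.91 and 6.66 FPKM at the lowest, median and highest of libraries labelled DKD_shRNA, against 2.74, 4.46 and 9.74 FPKM in DKD_Vehicle and 0.861, 1.35, 1.36 and 1.34 FPKM in NC. No NC library reached the lowest DKD library. Rtp4 rose by 1.37 ± 0.24 (log2, adjusted p = 0.00583) in libraries labelled DKD_shRNA and by 1.39 ± 0.25 (adjusted p = 0.00288) in DKD_Vehicle.

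Trim30a, a ubiquitin ligase that restrains inflammatory signalling in mice, was 1.53, 2.38 and 3.30 FPKM at the lowest, median and highest of libraries labelled DKD_shRNA, against 1.75, 2.80 and 5.16 FPKM in DKD_Vehicle and 0.978, 0.980, 1.15 and 1.32 FPKM in NC. Both DKD groups lay above NC. The log2 fold change was 0.69 ± 0.17 (adjusted p = 0.0393) in libraries labelled DKD_shRNA and 0.89 ± 0.17 (adjusted p = 0.00510) in DKD_Vehicle. The first ended when any of DKD_shRNA 13, 15, 29, 31, 34 or 35 or any NC library was left out. Reads of Trim30a may be shared with near-identical Trim30 copies, so its level is uncertain.

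The other regulators had smaller differences. Parp9 and Dtx3l, whose products form a complex that ubiquitylates and ADP-ribosylates chromatin and viral proteins, had log2 fold changes of 0.56 and 0.37 in libraries labelled DKD_shRNA and 0.50 and 0.46 in DKD_Vehicle. With DKD_Vehicle 20 left out, the values in DKD_Vehicle were 0.43 and 0.32. Parp9 rose in both comparisons, calls that ended when libraries were rescaled to the same total, and Dtx3l did not pass in either. Their gene bodies overlap by 682 bases on chromosome 16 and the use of strand in counting is not given, so their values are not fully separate. Parp14, an ADP-ribosyltransferase, had log2 fold changes of 0.76 (adjusted p = 0.0711) in libraries labelled DKD_shRNA and 0.83 (adjusted p = 0.0248) in DKD_Vehicle. Its call in DKD_Vehicle ended without DKD_Vehicle 4 or without any one NC library, and it passed in libraries labelled DKD_shRNA without DKD_Vehicle 20 (adjusted p = 0.0328), DKD_Vehicle 19 or DKD_shRNA 32. Helz2, Trim21, Trim25, Sp100 and Lgals9 did not pass in either comparison, with log2 fold changes of 0.17 to 0.47 in libraries labelled DKD_shRNA and 0.21 to 0.58 in DKD_Vehicle. The value of 0.21, for Helz2, was 0.14 without DKD_Vehicle 20. In DKD_Vehicle, Sp100 and Lgals9 passed without DKD_Vehicle 19, Trim21 without DKD_Vehicle 8 and Trim25 without DKD_shRNA 13.

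ISG15 is a ubiquitin-like protein that is attached to other proteins during the response. Isg15 (ENSMUSG00000035692, chr4:156199424-156200818, minus strand) was 6.81, 11.1 and 21.5 FPKM at the lowest, median and highest of libraries labelled DKD_shRNA, against 6.62, 7.76 and 22.7 FPKM in DKD_Vehicle and 2.05, 2.88, 2.18 and 2.88 FPKM in NC. Every DKD library was above every NC library, and the highest of each DKD group were DKD_shRNA 35 and DKD_Vehicle 20. Isg15 rose 3.54-fold in libraries labelled DKD_shRNA (log2 1.82 ± 0.32, adjusted p = 0.00591) and 3.26-fold in DKD_Vehicle (log2 1.71 ± 0.33, adjusted p = 0.00520). Its log2 fold change in DKD_Vehicle against NC was 1.49 without DKD_Vehicle 20.

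Usp18, which removes ISG15 and also blocks the interferon receptor, was 1.63, 2.59 and 3.39 FPKM at the lowest, median and highest of libraries labelled DKD_shRNA, against 1.33, 2.11 and 5.08 FPKM in DKD_Vehicle and 0.733, 0.871, 0.614 and 0.580 FPKM in NC. Again the DKD libraries were all above NC. Usp18 rose by 1.03 ± 0.21 (log2, adjusted p = 0.0134) in libraries labelled DKD_shRNA, a call that ended without NC 39, and by 1.01 ± 0.21 (adjusted p = 0.00856) in DKD_Vehicle.

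Uba7, the enzyme that activates ISG15 for attachment, was 1.42, 1.95 and 2.49 FPKM at the lowest, median and highest of libraries labelled DKD_shRNA, against 1.27, 2.18 and 4.74 FPKM in DKD_Vehicle and 1.54, 1.18, 1.41 and 1.02 FPKM in NC. Both DKD groups overlapped NC. Its log2 fold changes were 0.41 (adjusted p = 0.270) in libraries labelled DKD_shRNA and 0.55 (adjusted p = 0.0803) in DKD_Vehicle, and it passed in DKD_Vehicle without DKD_Vehicle 19. The second value was 0.39 with DKD_Vehicle 20 left out. Herc6, the main ISG15 ligase in mice, was too low to be tested, at 0.589 to 0.929 FPKM in libraries labelled DKD_shRNA, 0.436 to 1.01 FPKM in DKD_Vehicle and 0.536 to 0.659 FPKM in NC.

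Many of the genes listed as effectors act on viral RNA, proteins or particles. Of 16, 15 were tested, 11 rose in libraries labelled DKD_shRNA and 12 rose in DKD_Vehicle, with median log2 fold changes of 0.96 and 1.01 against NC. Bst2 (ENSMUSG00000046718, chr8:71534255-71537456, minus strand) encodes tetherin, a membrane protein that holds budding virions on the cell. It was 34.95, 55.9 and 71.3 FPKM at the lowest, median and highest of libraries labelled DKD_shRNA, against 31.4, 48.7 and 82.4 FPKM in DKD_Vehicle and 8.83, 11.8, 12.7 and 14.5 FPKM in NC. The gap between the lowest DKD library and the highest NC library was wider than the NC range. Bst2 rose 4.24-fold in libraries labelled DKD_shRNA (log2 2.08 ± 0.24, adjusted p = 9.54e-05) and 4.10-fold in DKD_Vehicle (log2 2.03 ± 0.24, adjusted p = 0.000138).

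Ifit1, a protein that binds the ends of viral RNA, was 3.60, 6.89 and 8.95 FPKM at the lowest, median and highest of libraries labelled DKD_shRNA, against 3.05, 4.67 and 13.9 FPKM in DKD_Vehicle and 0.877, 0.746, 1.24 and 1.08 FPKM in NC. All DKD libraries were above NC, with DKD_Vehicle 20 the highest. Ifit1 rose 3.51-fold in libraries labelled DKD_shRNA (log2 1.81 ± 0.30, adjusted p = 0.00321) and 3.55-fold in DKD_Vehicle (log2 1.83 ± 0.31, adjusted p = 0.00178).

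Ifit3, its partner in human cells, was 12.1, 16.8 and 36.4 FPKM at the lowest, median and highest of libraries labelled DKD_shRNA, against 9.59, 17.1 and 42.5 FPKM in DKD_Vehicle and 4.57, 3.12, 6.42 and 6.53 FPKM in NC. The groups were separate, although the NC libraries themselves ranged widely. Ifit3 rose by 1.70 ± 0.34 (log2, adjusted p = 0.0122) in libraries labelled DKD_shRNA, a call that ended without NC 38, and by 1.74 ± 0.35 (adjusted p = 0.00595) in DKD_Vehicle. Ifit2 rose as well, by 0.98 in libraries labelled DKD_shRNA and by 1.11 in DKD_Vehicle on the log2 scale, and its first call ended without NC 38 or NC 39. Reads of the neighbouring Ifit genes could be shared between near-identical stretches.

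**Figure D3:**
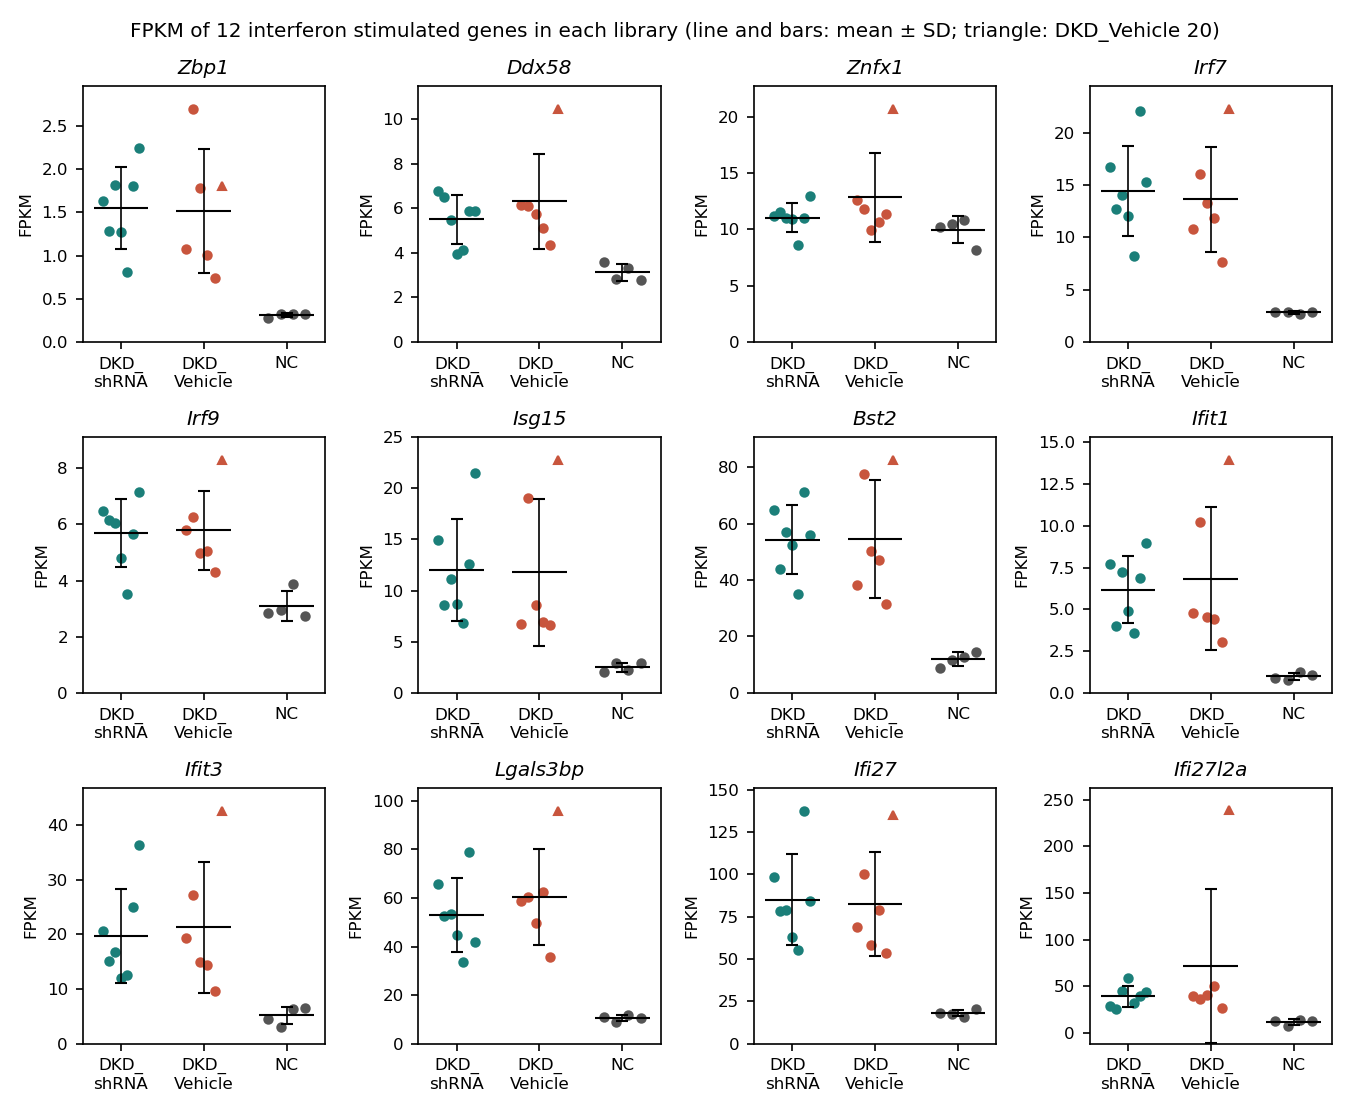
FPKM of 12 interferon stimulated genes in every library, with DKD_shRNA, DKD_Vehicle and NC from left to right; points are libraries, the triangle is DKD_Vehicle 20, and lines with bars are mean ± SD. For Zbp1, Ddx58, Irf7, Isg15, Bst2, Ifit1, Ifit3, Lgals3bp, Ifi27 and Ifi27l2a every DKD library lies above every NC library, while Znfx1 overlaps NC.

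The OAS enzymes make the messenger 2-5A, which activates the ribonuclease RNase L. Oasl1, an OAS-like protein that in mice blocks Irf7 translation, rose by 1.64 on the log2 scale in libraries labelled DKD_shRNA and by 1.53 in DKD_Vehicle. In libraries labelled DKD_shRNA the log2 rise was 1.18 for Oas2, 1.24 for Oas1a, 0.96 for Oasl2 and 0.92 for Oas1g. In DKD_Vehicle it was 1.40 for Oas2, 1.25 for Oas1a, 1.01 for Oasl2 and 0.96 for Oas1g. With DKD_Vehicle 20 left out, these were 1.22, 1.09, 0.87 and 0.88. In libraries labelled DKD_shRNA the calls of Oas2, Oasl2 and Oas1g ended without NC 38, and those of Oas2 and Oasl2 also without NC 39. The call of Oasl2 there ended further without DKD_shRNA 13, DKD_shRNA 35, NC 37 or NC 41. Oas1a and Oas1g lie 8642 bases apart and share long stretches, so reads may have been split between them.

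Further effectors gave a mixed picture. Xaf1, an antagonist of the apoptosis inhibitor XIAP, rose by 0.84 in libraries labelled DKD_shRNA and by 0.93 in DKD_Vehicle on the log2 scale. Parp12, an ADP-ribosyltransferase, rose by 0.55 in libraries labelled DKD_shRNA and by 0.49 in DKD_Vehicle. The calls of Xaf1 and Parp12 in libraries labelled DKD_shRNA ended without any one NC library, that of Xaf1 also without DKD_shRNA 13 or 35, and the call of Parp12 in DKD_Vehicle ended without DKD_Vehicle 4 or any one NC library. Cmpk2, a mitochondrial nucleotide kinase beside Rsad2 in the genome, had log2 fold changes of 0.58 (adjusted p = 0.0782) in libraries labelled DKD_shRNA and 0.68 (adjusted p = 0.0200) in DKD_Vehicle. Its call in DKD_Vehicle ended without NC 37 or NC 41, and it passed in libraries labelled DKD_shRNA without DKD_Vehicle 20 (adjusted p = 0.0177). The call in DKD_Vehicle also ended with no low-value filter, with libraries rescaled to the same total or with only the groups compared.

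Rsad2, which encodes viperin, Mx2, a GTPase, and Samd9l did not pass in either comparison. Their log2 fold changes were 0.54, 0.58 and 0.19 in libraries labelled DKD_shRNA and 0.61, 0.51 and 0.13 in DKD_Vehicle, where that of Samd9l was 0.09 without DKD_Vehicle 20, and Rsad2 passed in DKD_Vehicle without DKD_Vehicle 8 or DKD_Vehicle 19. Samd9l, at 24.6, 27.0 and 34.9 FPKM at the lowest, median and highest of libraries labelled DKD_shRNA, 21.2, 27.3 and 31.3 FPKM in DKD_Vehicle and 24.2, 25.1, 23.4 and 23.9 FPKM in NC, was singled out after its values were seen as the highest of the 47 in NC. Its groups overlapped. Mx1, another antiviral GTPase, was not tested, with 0.297, 0.785 and 1.40 FPKM at the lowest, median and highest of libraries labelled DKD_shRNA, 0.0906, 0.658 and 0.832 FPKM in DKD_Vehicle and 0.261, 0.237, 0.296 and 0.0658 FPKM in NC. The untested sensor Ddx60 ran between 0.221 and 0.584 FPKM in libraries labelled DKD_shRNA, 0.142 and 0.464 FPKM in DKD_Vehicle, and 0.0650 and 0.186 FPKM in NC.

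The 5 other genes included the largest log2 fold change among the 44 tested genes. Of the 5, 2 rose in libraries labelled DKD_shRNA and 5 in DKD_Vehicle. Lgals3bp (ENSMUSG00000033880, chr11:118392751-118402092, minus strand) encodes a secreted glycoprotein that binds galectin-3. It was 33.8, 52.4 and 78.9 FPKM at the lowest, median and highest of libraries labelled DKD_shRNA, against 35.7, 59.5 and 95.7 FPKM in DKD_Vehicle and 10.9, 9.10, 11.7 and 10.6 FPKM in NC. Every DKD library was well above every NC library. Lgals3bp rose 4.52-fold in libraries labelled DKD_shRNA (log2 2.18 ± 0.22, adjusted p = 2.34e-05) and 5.11-fold in DKD_Vehicle (log2 2.35 ± 0.23, adjusted p = 1.15e-05).

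Ifi27 (ENSMUSG00000064215, chr12:103434211-103440239, plus strand) was 55.1, 79.2 and 137 FPKM at the lowest, median and highest of libraries labelled DKD_shRNA, against 53.7, 74.0 and 135 FPKM in DKD_Vehicle and 18.2, 17.4, 15.8 and 20.5 FPKM in NC. The DKD groups covered nearly the same range, above all NC libraries. Ifi27 rose 4.38-fold in libraries labelled DKD_shRNA (log2 2.13 ± 0.24, adjusted p = 7.1e-05) and 4.19-fold in DKD_Vehicle (log2 2.07 ± 0.24, adjusted p = 0.000117).

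Its neighbour Ifi27l2a, 1927 bases away and of the same family, was 26.1, 39.6 and 59.2 FPKM at the lowest, median and highest of libraries labelled DKD_shRNA, against 26.4, 39.8 and 239 FPKM in DKD_Vehicle and 12.5, 7.73, 14.2 and 13.3 FPKM in NC. The value of 239 FPKM was that of DKD_Vehicle 20, and the next library of its group was at 49.99 FPKM. The log2 fold change was 1.63 ± 0.42 (adjusted p = 0.0543) in libraries labelled DKD_shRNA and 2.05 ± 0.43 (adjusted p = 0.00849) in DKD_Vehicle. Without DKD_Vehicle 20 these were 1.63 (adjusted p = 0.000477) and 1.61 (adjusted p = 0.000696), so both passed, and the gene passed in libraries labelled DKD_shRNA without DKD_Vehicle 19 too. Ifi35 and Ifi44 rose in DKD_Vehicle by 0.68 and 0.88 on the log2 scale, with 0.63 (adjusted p = 0.0776) and 0.67 (adjusted p = 0.167) in libraries labelled DKD_shRNA. With DKD_Vehicle 20 left out, the rises in DKD_Vehicle were 0.62 and 0.65. The call of Ifi35 ended without NC 37, NC 38 or NC 39, that of Ifi44 without DKD_Vehicle 4, DKD_Vehicle 6 or any one NC library, and Ifi44 passed in libraries labelled DKD_shRNA without DKD_Vehicle 20 (adjusted p = 0.0134) and Ifi35 without DKD_Vehicle 4.

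The comparison of libraries labelled DKD_shRNA with DKD_Vehicle set the Gcgr shRNA label against the Ctr shRNA label within the diabetic kidney disease kidneys. None of the 44 tested genes passed (limma, Benjamini-Hochberg, lowest adjusted p = 0.810), as for 0% of all 13279 tested genes. At an unadjusted p under 0.05 the count was 0 of the 44, against 7.32% of all tested genes, and limma voom on recovered reads also gave 0. Groups separated for 0 of the 44 genes, against 0.203% of all tested genes. The log2 fold change was above 0 for 16 of the 44, against 48.5% of all tested genes, with a median of -0.04 and a range of -0.42 to 0.12. The 95% interval stayed within 1.5-fold either way for 37 of the 44, against 86.8% of all tested genes.

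The remaining 7, Isg15, Ifit3, Oas2, Oasl1, Ifi27l2a, Ifi44 and Lgals3bp, had wider intervals. The lowest bound was -1.21 for Ifi27l2a and the highest 0.72 for Isg15 on the log2 scale, so differences up to that size are not excluded by these intervals. The bound of Ifi27l2a rests on DKD_Vehicle 20, without which its log2 fold change was 0.01 ± 0.20 (SE). For Irf7 the log2 fold change was 0.10 with an interval of -0.33 to 0.53, and for Ifit1 it was -0.02 with an interval of -0.57 to 0.54. A p above the threshold does not show that the groups are alike.

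The 3 genes with the lowest p were Trim21, Trim30a and Znfx1. Trim21, an antibody receptor in the cytosol and a ubiquitin ligase, was 1.53, 2.12 and 2.52 FPKM at the lowest, median and highest of libraries labelled DKD_shRNA, against 1.59, 2.41 and 3.36 FPKM in DKD_Vehicle and 1.42, 1.81, 1.26 and 1.61 FPKM in NC. Its groups overlapped, with a log2 fold change of -0.16 (95% interval -0.40 to 0.08, adjusted p = 0.810, limma). For Trim30a the log2 fold change was -0.20 (interval -0.51 to 0.12, adjusted p = 0.823).

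Znfx1 was 8.595, 11.05 and 12.996 FPKM at the lowest, median and highest of libraries labelled DKD_shRNA, against 9.96, 11.6 and 20.7 FPKM in DKD_Vehicle and 10.2, 10.5, 10.9 and 8.21 FPKM in NC. The 20.7 FPKM were those of DKD_Vehicle 20, and all 3 groups overlapped otherwise. Its log2 fold change between the DKD groups was -0.17 (interval -0.44 to 0.10, adjusted p = 0.827), and -0.03 without DKD_Vehicle 20.

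**Figure D4:**
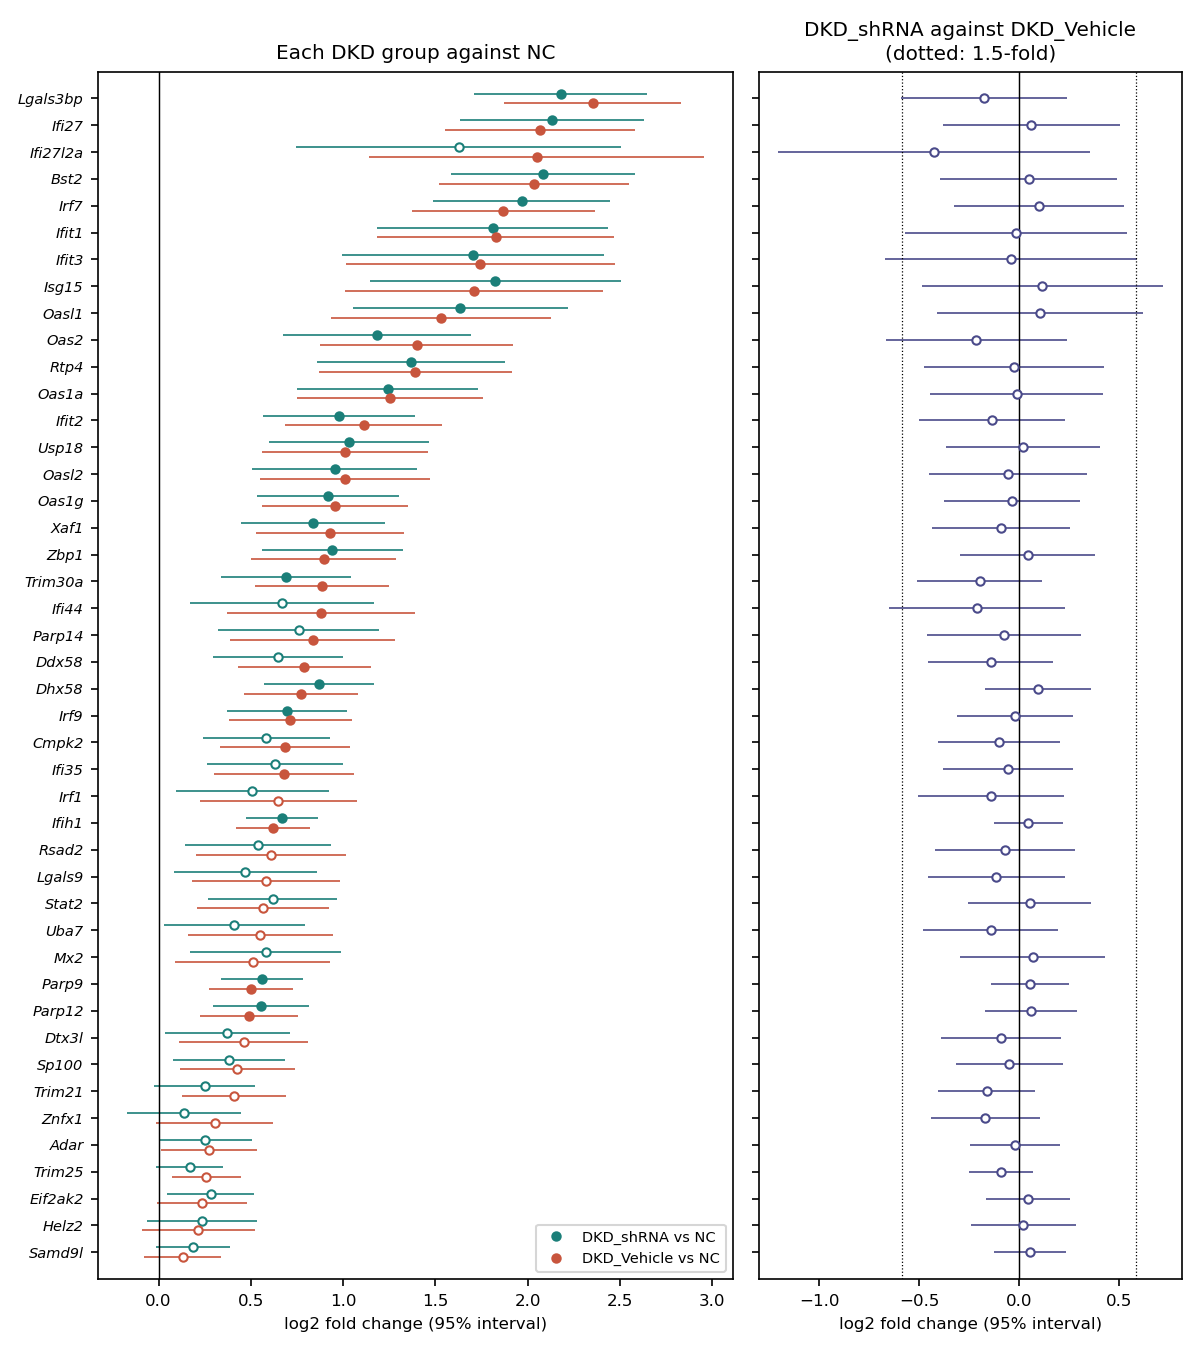
Log2 fold change, on the log2(FPKM + 1) scale, with 95% intervals for the 44 tested genes. In the left panel each DKD group is set against NC, with DKD_shRNA above DKD_Vehicle and filled points for an adjusted p under 0.05; in the right panel DKD_shRNA is set against DKD_Vehicle, no point passes, and dotted lines mark 1.5-fold.

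Leaving out DKD_Vehicle 20 moved the sign of this comparison for many of the genes. Without it the log2 fold change of libraries labelled DKD_shRNA against DKD_Vehicle was above 0 for 36 of the 44 and below 0 for 8, with a median of 0.07 and a range of -0.09 to 0.33, while 47.9% of all tested genes were above 0. Again 0 of the 44 passed and 0 had an unadjusted p under 0.05, where 0.0152% of all tested genes passed. Ifi27l2a had a log2 fold change of 0.01 without that library, against -0.42 with it, and Isg15 had 0.33 (adjusted p = 0.817), against 0.12 with it.

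**Figure D5:**
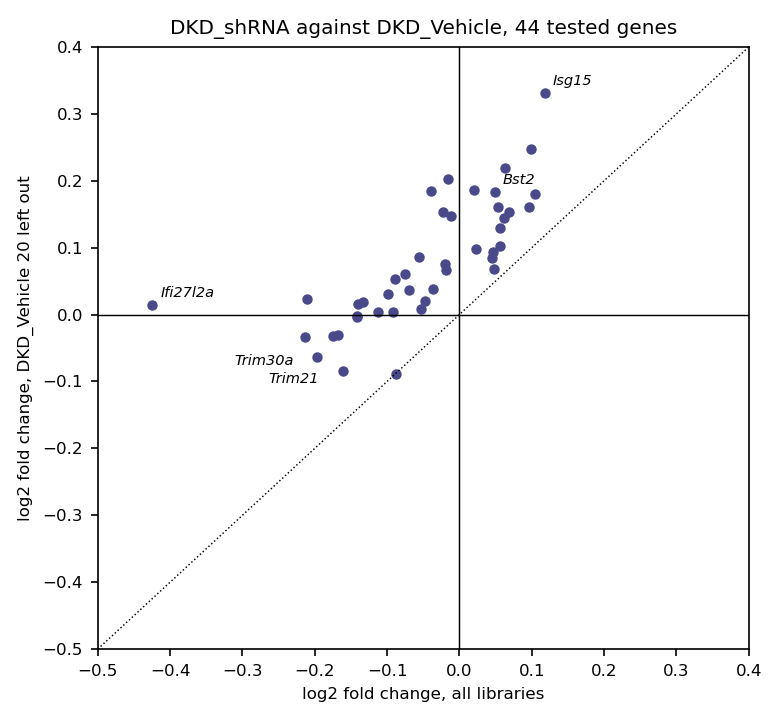
Log2 fold change of DKD_shRNA against DKD_Vehicle for the 44 tested genes, with all libraries on the horizontal axis and without DKD_Vehicle 20 on the vertical axis; the dotted line marks equal values. Nearly all points lie above that line, and Ifi27l2a moves furthest, between -0.42 and 0.01.

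The interferon stimulated genes also varied between libraries within each DKD group. The mean of log2(FPKM + 1) over the 44 tested genes, minus its NC mean, was 1.07, 0.87, 0.98, 0.71, 0.50, 0.99 and 1.12 in DKD_shRNA 13, 15, 29, 31, 32, 34 and 35. In DKD_Vehicle 1, 4, 6, 8, 19 and 20 it was 0.82, 1.13, 0.93, 0.70, 0.47 and 1.56, and in NC it lay between -0.04 and 0.03. All 13 DKD libraries were above all 4 NC libraries, and the lowest library of each DKD group was at a similar level.

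The same libraries were extreme for many genes at once. DKD_Vehicle 20 was the highest of its group for 35 of the 44 (79.55%, against 21.23% of all tested genes), and DKD_Vehicle 19 was the lowest for 36 (81.82%, against 13.79%). Among libraries labelled DKD_shRNA, 32 was the lowest for 32 of the 44 (72.73%, against 14.44%) and 35 was the highest for 18 (40.91%, against 14.59%). Over all 17 libraries DKD_Vehicle 20 was the highest for 31 of the 44. Because libraries share cells and RNA across genes, these counts describe libraries and are not 44 separate observations.

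Other genes of the pathway were taken from lists chosen by function. Of 21 interferon genes, none reached the filter and 12 were at 0 reads in every library, Ifnb1 and most interferon alpha genes among them, which allows up to 3 reads each per library. The other 9 had 1 to 12 reads over all 17 libraries. Ifng, the type II interferon made by T and NK cells, had 3 reads over libraries labelled DKD_shRNA, 7 over DKD_Vehicle and 0 over NC.

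Among 15 receptor and signalling genes, 14 were tested, 3 rose in libraries labelled DKD_shRNA, 6 rose in DKD_Vehicle and 0 fell, with median log2 fold changes of 0.15 and 0.19. The shares of all tested genes that rose were 1.42% and 3.58%, in the same order. Ifngr2, a chain of the interferon gamma receptor, rose by 0.38 on the log2 scale in libraries labelled DKD_shRNA (adjusted p = 0.0479) and by 0.40 in DKD_Vehicle (adjusted p = 0.0190, limma). Its first call ended in 18 of 28 alternatives, and its second without NC 37, NC 38 or NC 39. Il10rb, a receptor chain shared by interferon lambda and interleukin 10, rose by 0.33 in DKD_Vehicle (adjusted p = 0.0126), with 0.19 (adjusted p = 0.206) in libraries labelled DKD_shRNA. Rescaling libraries to the same total ended the calls of Il10rb and Ifngr2 in DKD_Vehicle.

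Of 22 genes of upstream sensing, Trex1 was not matched, 16 were tested, 2 rose in libraries labelled DKD_shRNA, 3 rose in DKD_Vehicle and 0 fell, with median log2 fold changes of 0.19 in each. Of all tested genes, 1.42% rose in libraries labelled DKD_shRNA and 3.58% in DKD_Vehicle. Tlr3, the endosomal sensor of double-stranded RNA, rose by 0.35 (adjusted p = 0.0326) in libraries labelled DKD_shRNA and by 0.38 (adjusted p = 0.0106) in DKD_Vehicle. Ifi204, a DNA-binding protein of the p200 family in mice, rose by 0.75 (adjusted p = 0.0275) in libraries labelled DKD_shRNA and by 0.72 (adjusted p = 0.0190) in DKD_Vehicle. The call of Tlr3 in DKD_Vehicle ended when libraries were rescaled to the same total. Tmem173, which encodes the adaptor STING, rose by 0.51 in DKD_Vehicle (adjusted p = 0.0491), a call that ended in 19 of 27 alternatives, and had 0.22 (adjusted p = 0.497) in libraries labelled DKD_shRNA. In libraries labelled DKD_shRNA the calls of Tlr3 and Ifi204 ended without DKD_shRNA 13, DKD_shRNA 35 or any one NC library, that of Tlr3 also without DKD_shRNA 15, 29 or 34, and in DKD_Vehicle the call of Ifi204 ended without NC 37 or NC 41. None of either list passed between the DKD groups, where 2 signalling and 1 sensing gene had an unadjusted p under 0.05, out of 14 and 16 tested, beside 7.32% of all tested genes.

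Immune cells express many interferon stimulated genes, and whole kidney RNA cannot separate more cells of a type from more RNA per cell. Beside the marker counts below, 1.42% of all tested genes rose in libraries labelled DKD_shRNA and 3.58% in DKD_Vehicle. The 14 macrophage markers summed to 105 to 178 FPKM in libraries labelled DKD_shRNA, 75.2 to 183 FPKM in DKD_Vehicle and 74.2 to 98.9 FPKM in NC. Of the 11 tested, 2 rose in libraries labelled DKD_shRNA, and 2 rose and 1 fell in DKD_Vehicle. Fold changes were above 0 for 10 of the 11 in each comparison with NC. Median log2 fold changes were 0.46 in libraries labelled DKD_shRNA and 0.49 in DKD_Vehicle, against -0.0049 and 0.0071 over all tested genes. Csf1r, the exception, which fell in DKD_Vehicle, was 14.0 to 16.4 FPKM in NC, above every DKD library. It was 8.36 to 12.2 FPKM in libraries labelled DKD_shRNA and 5.49 to 10.2 FPKM in DKD_Vehicle. Lyz2, C1qa and C1qb made up most of each sum. The 12 T and NK cell markers summed to 6.21 to 11.1 FPKM in libraries labelled DKD_shRNA, 3.83 to 13.8 FPKM in DKD_Vehicle and 2.56 to 4.08 FPKM in NC, with 1 of 3 tested markers, Ccl5, rising in each DKD group. The 7 B cell markers summed to 9.23 to 30.5 FPKM in libraries labelled DKD_shRNA, 3.89 to 28.4 FPKM in DKD_Vehicle and 3.06 to 7.69 FPKM in NC, and the 1 tested marker rose in libraries labelled DKD_shRNA, did not pass in DKD_Vehicle, and did not pass in the test between the DKD groups.

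Plasmacytoid dendritic cells, which make much of the body's interferon alpha, were looked for with 5 markers. Siglech, their defining marker, was at 0.0171 to 0.299 FPKM in all 17 libraries. The 5 summed to 1.79 to 4.50 FPKM in libraries labelled DKD_shRNA, 1.90 to 63.3 FPKM in DKD_Vehicle (4.30 FPKM at most without DKD_Vehicle 20, where Ly6d alone was 62.0 FPKM) and 3.31 to 4.12 FPKM in NC. The 7 neutrophil markers summed to 2.44 to 17.4 FPKM in libraries labelled DKD_shRNA, 0.848 to 9.48 FPKM in DKD_Vehicle and 3.45 to 24.4 FPKM in NC. The 8 endothelial markers summed to 80.5 to 112 FPKM in libraries labelled DKD_shRNA, 71.0 to 163 FPKM in DKD_Vehicle and 91.9 to 100.4 FPKM in NC. None of the 2 tested markers of plasmacytoid dendritic cells, the 2 of neutrophils and the 8 of endothelium passed against NC in either DKD group.

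Proximal tubule markers, of cells that make up most of the cortex, summed to 3285 to 4081 FPKM in libraries labelled DKD_shRNA, 2920 to 4219 FPKM in DKD_Vehicle and 4325 to 5241 FPKM in NC, and 1 of 10 fell in libraries labelled DKD_shRNA and 4 of 10 in DKD_Vehicle. Of all 13279 tested genes, 79 fell in libraries labelled DKD_shRNA and 519 fell in DKD_Vehicle. DKD_Vehicle 19, with the lowest mean of the interferon stimulated genes in its group, had the lowest macrophage sum (75.2 FPKM) and the highest tubule sum (4219 FPKM) of that group, and DKD_Vehicle 20, with the highest mean, had the lowest tubule sum (2920 FPKM). The macrophage sum of DKD_Vehicle 20 was 149 FPKM, below the 183 FPKM of DKD_Vehicle 6 and the 156 FPKM of DKD_Vehicle 8. Among libraries labelled DKD_shRNA, 31 had the highest macrophage sum (178 FPKM) and the second lowest mean of the interferon stimulated genes, and 32, with the lowest mean, had 123 FPKM, above the 105 FPKM of 15. The fat and urothelium lists, each of 7 markers, were high in DKD_Vehicle 20 alone, and 0 of 4 tested markers of each passed against NC in either DKD group. No marker of these lists was at 0 in every library. The part of these cell types in the rise of the interferon stimulated genes was not tested.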

How the data were processed

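Per the labels' protocols, libraries were prepared with a SMARTER mRNA-Seq kit after Trizol extraction of kidney RNA. The authors deposited 1 table of FPKM for each gene in each library; per the file headers it also holds coordinates and gene lengths. GRCm38 and mm10 are named per the submitters' processing notes; the sources used here name no aligner, counter or strand setting. Groups came from the titles: DKD_shRNA 13, 15, 29, 31, 32, 34 and 35, DKD_Vehicle 1, 4, 6, 8, 19 and 20, and NC 37, 38, 39 and 41. Of the table, 1 incomplete line was left out.

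FPKM multiplied by gene length gave whole multiples of 1 step per library for 100.0% of low values (up to 200 steps, within 0.05 of a step). Totals of these recovered reads ran between 13997657 and 17107876. This depth limits precision for the lowest genes, and a gene at 0 reads may still be present at up to 3 reads, counting error only.

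Values were transformed to log2(FPKM + 1), and the 13279 genes that reached 1 FPKM in 4 or more libraries were fitted over all 3 groups with limma 3.58.1 (trend) in R 4.3.3. Benjamini-Hochberg adjustment ran over all tested genes, with a threshold of 0.05; fold changes are on that log scale and intervals are 95%. The procedure was tested on simulated data. Alternatives changed the scaling, the pseudocount, the low-value filter, the groups fitted and the variance model, used limma voom on recovered reads, and left out each library in turn, or DKD_Vehicle 20 with DKD_shRNA 31.

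The members and lists were chosen with earlier results of these data known. Library values (lowest, median and highest in the DKD groups, each library in NC) are given for the 3 tested genes per role with the largest change in DKD_Vehicle against NC, the 3 with the lowest p between the DKD groups, and Irf1, Irf7, Irf9, Stat2 and Isg15. Of each pathway list the 3 with the lowest p in DKD_Vehicle against NC are named, except 1 that is not reported here. Any gene given library values outside this rule is said to be so, apart from the 3 genes too low to be tested. Promoters came from RefSeq.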

Additional observations from a re-analysis of the deposited data

Results flagged for a closer look

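Of 150 groups of values looked at, 15 held a library set apart from its group by a gap that is large for the group's range, and the limit used is set so that chance flags about 1 in 20 groups. DKD_Vehicle 20 was the highest of its group and set apart in 5 of these: Ifi27l2a at 239 FPKM (next 49.99), Znfx1 at 20.7 FPKM (next 12.6), Ddx58 at 10.4 FPKM (next 6.13), Ifi44 at 7.84 FPKM (next 3.39) and Oas2 at 6.14 FPKM (next 3.43). In the same group DKD_Vehicle 19 was low for Ifih1, at 1.80 FPKM (next 2.53).

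Among libraries labelled DKD_shRNA, DKD_shRNA 32 was low for Helz2, at 1.12 FPKM (next 2.10), and for Sp100, at 1.28 FPKM (next 1.96). Set apart on the high side were DKD_shRNA 13 for Trim25 at 28.4 FPKM (next 23.4), DKD_shRNA 29 for Samd9l at 34.9 FPKM (next 28.4) and DKD_shRNA 35 for Rsad2 at 6.92 FPKM (next 5.18).

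In NC, NC 41 was high for Eif2ak2, at 3.27 FPKM (next 3.01), and NC 37 was high for Parp9, at 3.48 FPKM (next 2.95), and low for Rtp4, at 0.861 FPKM (next 1.34). NC 39 was low for Irf7, at 2.62 FPKM (next 2.87).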

How the results depend on the processing

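No fold change of a tested gene against NC reversed sign in any of the alternatives run. Of the 29 genes called in DKD_Vehicle against NC, 23 held in every alternative in which they were tested (27 or 28 each) and 6 were lost in some. Rescaling to the same total ended the calls of Cmpk2, Ifi44, Parp9, Parp12 and Parp14. No filter on low values ended those of Cmpk2, Ifi35, Ifi44, Parp12 and Parp14. Fitting only the groups compared ended those of Cmpk2, Ifi35, Ifi44 and Parp14, and limma voom those of Ifi44 and Parp12. Of the 23 called in libraries labelled DKD_shRNA against NC, 12 held in all and 11 were lost in some. Here rescaling to the same total ended the calls of Irf9, Oasl2, Parp9, Parp12, Trim30a and Xaf1. No filter on low values ended the same calls except that of Parp9. Limma voom ended those of Ifit2, Ifit3, Irf9, Oas2, Oasl2, Parp12, Trim30a and Xaf1.

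Interferon stimulated genes: with only genes of mean FPKM 5 or more, 15 of the 47 were tested and 10 rose in libraries labelled DKD_shRNA and 12 in DKD_Vehicle, since fewer genes entered. Of all genes then tested, 1.62% and 5.01% rose. Rescaling to the same total gave 17 in libraries labelled DKD_shRNA and 24 in DKD_Vehicle, where 1% and 2.76% of all tested genes rose. Limma voom on recovered reads called 15 in libraries labelled DKD_shRNA, where 1.09% of all tested genes rose. Leaving out 1 library gave 14 (without NC 38) to 29 (without DKD_Vehicle 20) in libraries labelled DKD_shRNA and 24 (without NC 37) to 35 (without DKD_Vehicle 19) in DKD_Vehicle. Of all genes then tested, 0.643%, 1.7% and 1.78% rose in the first 3 of these, and 1264 were called in either direction in the last. Between the DKD groups the count was 0 under every alternative run.

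All genes: 268 were called in libraries labelled DKD_shRNA against NC. That became 155 with no filter, 154 at mean FPKM 5 or more, 1070 with sample weights, 444 with only the groups compared, and 103 (without NC 39) to 348 (without DKD_Vehicle 4) with 1 library left out. The 189 higher and 79 lower calls became 133 and 113 when libraries were rescaled to the same total. In DKD_Vehicle against NC the 994 calls became 597 with no filter, 2087 with sample weights, and 456 (without NC 39) to 1264 (without DKD_Vehicle 19). Between the DKD groups 0 genes were called, 1 with a pseudocount of 0.1, 1 at mean FPKM 5 or more, 1 with only the groups compared, and 0 to 3 (without DKD_shRNA 13) with 1 library left out.

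Other pathway genes: 5 were called in libraries labelled DKD_shRNA, against 0 with no filter, 2 at mean FPKM 5 or more, 1 rescaled to the same total, 8 with sample weights (7 higher, 1 lower), 1 with voom, and 0 (without any one NC library) to 5 with 1 library left out; it was 1 without DKD_shRNA 13 or DKD_shRNA 35 and 3 without DKD_shRNA 15 or DKD_shRNA 34. The 9 called in DKD_Vehicle, all higher, became 4 with no filter, 5 at mean FPKM 5 or more (4 higher, 1 lower), 13 with sample weights (10 higher, 3 lower), 3 rescaled, 5 with only the groups compared, and 3 (without NC 37) to 11 (without DKD_Vehicle 19), with 5 without NC 38, 4 without NC 39, and 9 without DKD_Vehicle 20 (8 higher, 1 lower). The cause of these shifts was not tested.

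No paired analysis was possible because the groups share no library numbers.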
